A study of Mus musculus with 8 samples.

Results

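The genes described here encode the proteins of the cytosolic ribosome. They were chosen by symbol, as every gene named Rpl or Rps with a number, together with *Rplp0*, *Rplp1*, *Rplp2* and *Rpsa* and without the Rps6k kinases. This gave 84 of the 23282 genes counted, 51 for the large (60S) subunit and 33 for the small (40S) subunit. Liver RNA of C57BL/6 mice, 4 weeks old and described as male, was sequenced from the 3′ ends of transcripts, so that a count does not grow with the length of the gene. The control group received saline, the endotoxemic group received 25 mg/kg lipopolysaccharide (LPS), the endotoxin of gram-negative bacteria, and the LGK974 group received 60 mg/kg LGK974 together with 25 mg/kg LPS. LGK974 inhibits Porcupine, the enzyme that makes Wnt ligands fit for secretion. Livers were taken 6 h after LPS, and no group that received LGK974 alone was analysed here. The endotoxemic group was deposited as 4 libraries, but libraries 1 and 3 held identical counts, as did libraries 2 and 4, so each pair was counted once and every group had n = 2.

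A ribosome is built from ribosomal RNA and one copy of most of these proteins, and its genes are transcribed at high levels in every cell. Most of their mRNAs begin with a run of pyrimidines, the 5′ terminal oligopyrimidine (TOP) motif, through which the growth kinase complex mTORC1 and the mRNA-binding protein Larp1 adjust translation and mRNA stability. Ribosomal proteins made in excess of ribosomal RNA are degraded, and some, such as Rpl5 and Rpl11, bind the p53 inhibitor Mdm2 when free. In the liver the ribosome also serves the production of plasma and acute-phase proteins.

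Total counts per library ranged from 9142116 to 15222439. The control and endotoxemic libraries did not match the stated sex. *Xist*, transcribed from the inactive X of female cells, stood at 134 and 204 CPM (normalized counts, scaled to library size) in the control, 128 and 201 in the endotoxemic and 0.226 and 0.474 in the LGK974 libraries. The Y-linked *Ddx3y* had 0 counts in the control and endotoxemic libraries and stood at 132 and 94.2 CPM in the LGK974 libraries. Every difference between the LGK974 group and another group therefore coincided with this one, and the treatment and the difference in sex-linked transcripts cannot be told apart. The control and endotoxemic libraries were alike in these transcripts. The hepatocyte markers, 9 of 9 of them counted, summed to between 77154 and 133576 CPM in each library. After LPS 5 of them fell and 1 rose (23.0 and 20.4% of all genes tested did), with a median log2 fold change of −1.00, and the sum rested on *Alb*, which fell (−1.17), and the acute-phase gene *Fgb*, which rose (2.08). The tissue is bulk liver, so fewer cells of a type and less RNA per cell cannot be told apart, and the labels do not say whether the libraries came from separate animals. P-values therefore measure only the spread between these libraries.

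The symbols of 579 genes in the table did not lie next to their genomic neighbours. None of the 84 ribosomal protein genes was among them. For 7 members (*Rpl9*, *Rpl26*, *Rpl30*, *Rpl34*, *Rpl36a*, *Rps14* and *Rps27*) 1 of the adjoining symbols was out of order, as for *Rpl9*, which was followed by *Fcgr3* of another chromosome. Of the 84 members, 81 had enough counts to be tested. The other 3 are the paralogs *Rpl3l*, *Rpl10l* and *Rpl39l*, with at most 10 counts in any library. The lowest level of any tested member in any library was 19.4 CPM, for *Rpl12*, so no tested member passed through 1 group alone.

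Ribosomal protein transcripts took up a larger share of the liver mRNA counts after LPS, and a larger share still in the LGK974 group. The 84 genes held 1.45% (95% Wilson interval 1.44 to 1.46) and 1.41% (1.41 to 1.42) of the counts in the control libraries. They held 1.82% (1.81 to 1.83) and 1.81% (1.80 to 1.82) in the endotoxemic libraries and 2.18% (2.17 to 2.19) and 2.58% (2.57 to 2.58) in the LGK974 libraries. The intervals cover counting error only. The groups did not overlap, and the mean share was 1.27 times that of the control group in the endotoxemic group and 1.66 times in the LGK974 group. With 2 libraries against 2, the two-sided exact permutation test gave p = 0.33 for each of the 3 comparisons, the smallest p that this design allows. The 2 LGK974 libraries differed more from each other (SD 0.279 percentage points) than those of the control (0.0251) or endotoxemic group (0.00304), and 70 of the 81 tested members were higher in LGK974 library 2 than in library 1.

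**Figure D1:**
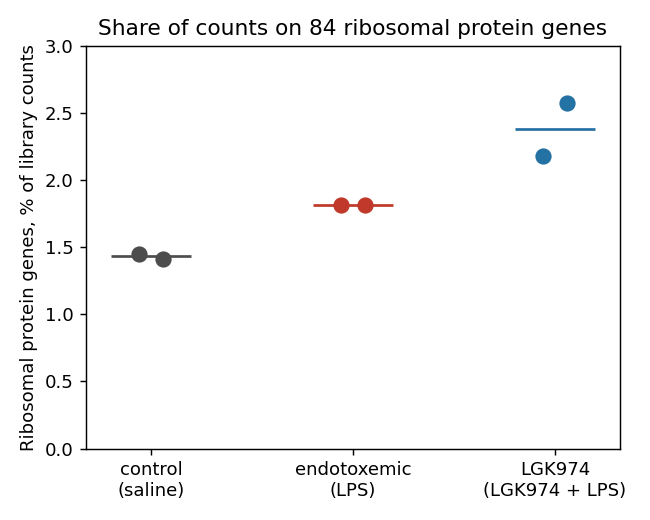
Share of library counts on the 84 ribosomal protein genes, in percent, for each distinct library (points) with the group mean (line), n = 2 per group. The control libraries lie at 1.45 and 1.41%, the endotoxemic libraries at 1.82 and 1.81% and the LGK974 libraries at 2.18 and 2.58%.

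The first comparison addresses the response of the liver to endotoxin. Against control, 14 of the 81 tested members rose in the endotoxemic group and 0 fell (edgeR's quasi-likelihood test with Benjamini-Hochberg adjustment over all 12701 genes tested, threshold 0.05). Among all genes tested, 20.4% rose and 23.0% fell (43.4% in all), so the share of members that rose, 17.3%, was close to the background, whereas none was among those that fell. At an unadjusted p below 0.05, 21 members were higher and 0 lower, where 24.5% of all genes tested were higher and 26.8% lower. DESeq2 called 18 members higher, where it called 21.1% of all genes higher, and 0 lower. The shift was small and in one direction. The log2 fold change was above 0 in 76 of the 81 members, its median was 0.28 in the members and 0.01 in all genes tested, and its quartiles in the members were 0.14 and 0.45. Both endotoxemic libraries were above both control libraries in 52 members, against 37.9% of all genes tested, and both were below in 0 members, against 39.2%. The count of 14 depended on single libraries. It was 2 or 3 without any 1 of the control or endotoxemic libraries, where 11.4 to 13.0% of all genes tested rose, and 27 without either LGK974 library, where 24.4% did.

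**Figure D2:**
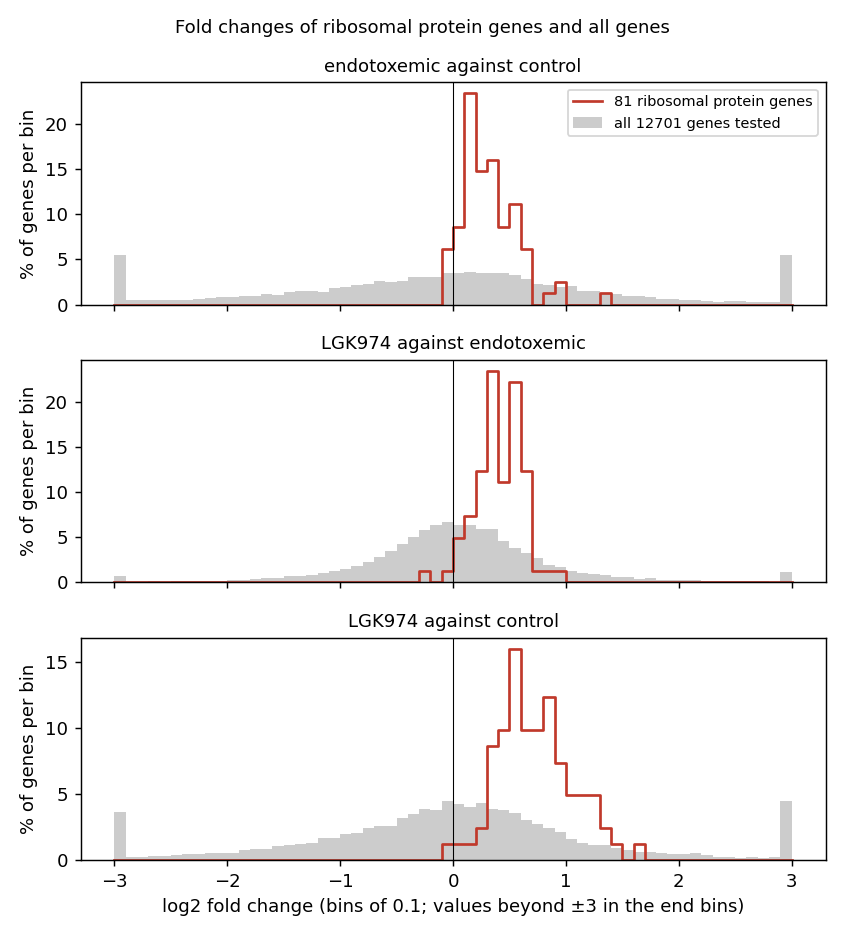
Distribution of log2 fold changes in bins of 0.1, as the percentage of all 12701 genes tested (grey bars) and of the 81 tested ribosomal protein genes (red line), for each comparison. The members' medians are 0.28, 0.38 and 0.69 from top to bottom, and those of all genes are 0.01, 0.03 and 0.02.

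The 4 largest fold changes after LPS were those of *Rpl22l1*, *Rps20*, *Rpl7l1* and *Rps15a*. *Rps20*, a protein of the 40S head, stood at 353 and 329 CPM in the control and at 684 and 677 CPM in the endotoxemic libraries. Both endotoxemic libraries were far above both control libraries, a 1.99-fold rise (log2 1.00 ± 0.18 SE, edgeR adjusted p = 0.00202), and among the 9 called members followed through all 17 alternative analyses it was the one that passed the test in each, with adjusted p of up to 0.0358. *Rps15a*, also a 40S protein, stood at 202 and 228 CPM in the control and at 362 and 436 CPM in the endotoxemic libraries. The groups again did not overlap, and the difference was 0.89 ± 0.20 on the log2 scale (edgeR adjusted p = 0.00606). *Rps27*, a zinc finger protein of the 40S subunit, rose from 26.9 and 31.0 to 47.7 and 45.1 CPM (log2 fold change 0.68, edgeR adjusted p = 0.0227). *Rpl12*, at the base of the ribosomal stalk, rose from 19.4 and 23.5 to 32.0 and 37.2 CPM (0.69, edgeR adjusted p = 0.0344). *Rps12*, *Rps13*, *Rpl18*, *Rpl27a*, *Rpl31* and *Rpl34* also passed the test, at log2 fold changes of 0.57 to 0.67.

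Paralogs that can stand in for a canonical protein were followed as a group. Of the 7, 4 were tested, 3 of these rose after LPS (20.4% of all genes tested did), and all 4 were higher in every endotoxemic than in every control library (37.9% of all genes tested were). *Rpl22l1*, the paralog of *Rpl22*, stood at 63.6 and 47.4 CPM in the control, 169 and 111 in the endotoxemic and 228 and 131 in the LGK974 libraries. It had the largest fold change of the 81 members after LPS, 2.53-fold (log2 1.34 ± 0.31, edgeR adjusted p = 0.00801), with a wide spread between libraries. *Rpl22* itself stood at 625 and 573, 617 and 660, and 699 and 885 CPM, and did not pass the test in any comparison (log2 0.09 ± 0.20 after LPS). *Rpl7l1* stood at 40.9 and 34.7 CPM in the control and at 76.8 and 66.5 in the endotoxemic libraries, which did not overlap (0.92 ± 0.21, edgeR adjusted p = 0.00618). *Rpl7*, its canonical counterpart, stood at 82.6 and 82.0 and then at 109 and 108 CPM (0.40 ± 0.19, edgeR adjusted p = 0.126). *Rps27l*, known as a p53 target, rose from 203 and 217 to 297 and 336 CPM (0.59, edgeR adjusted p = 0.0266), and *Rps4l* stood at 34.4 and 29.6 against 51.2 and 42.1 CPM (0.54, edgeR adjusted p = 0.0931). Against the endotoxemic group, 0 of the 4 paralogs passed the edgeR test in the LGK974 group (2.80% of all genes tested rose). At an unadjusted p below 0.05, 0 were higher, where 11.9% of all genes tested were. The median log2 fold change of the 4 was 0.11, with 0.42 in the 77 members outside the paralog list. This difference was not tested, and the values of *Rpl22l1*, *Rps27l* and *Rps4l* changed sign with 1 library left out.

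**Figure D3:**
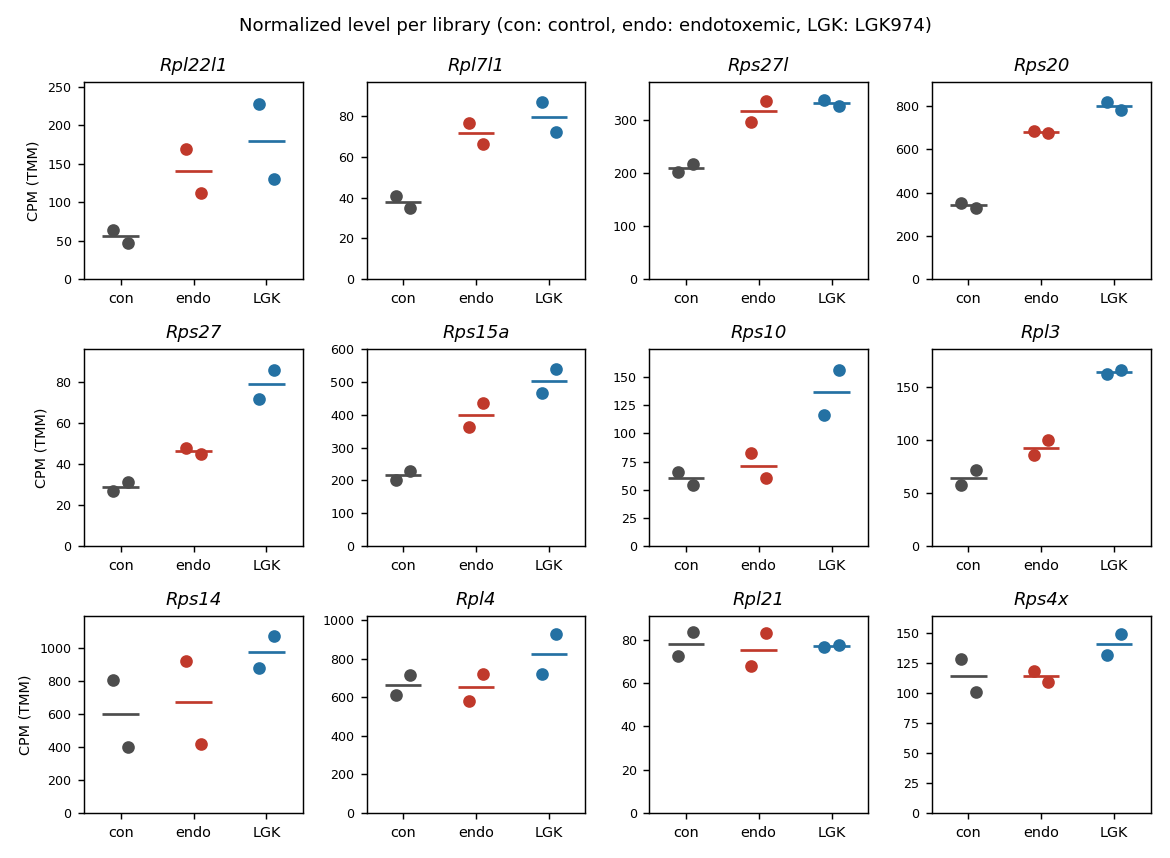
TMM-normalized level in CPM of 12 members in each library (points) with the group mean (line), each axis starting at 0. *Rps20*, *Rps15a*, *Rpl7l1* and *Rps27l* separate the endotoxemic from the control libraries, *Rps10* and *Rpl3* separate the LGK974 from the other libraries, and in *Rps14* the libraries of the control and endotoxemic groups lie far apart.

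At the other end, 5 members had a log2 fold change below 0 after LPS (*Rpl36*, *Rpl21*, *Rpl35a*, *Rpl4* and *Rps4x*), and the lowest was −0.08 for *Rpl36*. *Rpl4*, a protein of the peptide exit tunnel, stood at 614 and 716 CPM in the control, 581 and 723 in the endotoxemic and 719 and 928 in the LGK974 libraries. The control and endotoxemic libraries overlapped fully, and its log2 fold change of −0.03 ± 0.22 turned above 0 under other scalings, as did those of *Rps4x* and *Rpl35a*. *Rps14*, near the mRNA exit of the 40S subunit, was the second most abundant member but stood at 803 and 400 CPM in the control and at 920 and 417 in the endotoxemic libraries. This spread within groups was the widest of the tested members in both, and no difference was detectable (0.15 ± 0.40). *Rplp1*, the most abundant member, stood at 1095 and 917, 1233 and 1071, and 1677 and 1655 CPM.

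To show the start-site region of members that moved and of members that did not, 110 bases around the first start site that RefSeq lists (GRCm38.p6) are given, from 90 bases before the start to 20 bases from it, on the strand of the gene. Capitals mark a pyrimidine run at the start (C followed by at least 4 C or T, opening within 5 bases of the start) and matches, on either strand, to CCGGAAG (ETS factors) or AANATGGC (YY1). In Rps15a the capitals join a YY1 match and an overlapping run. Rps15a, Rpl22l1, Rps27 and Rpl27a rose after LPS, Rps10 had the largest fold change in the LGK974 group against the endotoxemic group, and Rpl4 and Rps4x were near 0 after LPS. These are picked examples, and members not printed go the other way. Rps12, Rps13 and Rpl7l1 rose after LPS without the run, and Rpl7a, Rplp2 and Rps2 had the run with log2 fold changes of 0.01 to 0.08.
Rps15a, chr7:118116128-118116237, minus strand: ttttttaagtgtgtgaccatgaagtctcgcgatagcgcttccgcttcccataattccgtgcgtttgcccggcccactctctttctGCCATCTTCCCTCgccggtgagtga
Rpl22l1, chr3:28805418-28805527, plus strand: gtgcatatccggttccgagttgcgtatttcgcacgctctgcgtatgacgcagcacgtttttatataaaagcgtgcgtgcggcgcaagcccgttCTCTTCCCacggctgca
Rps27, chr3:90213629-90213738, minus strand: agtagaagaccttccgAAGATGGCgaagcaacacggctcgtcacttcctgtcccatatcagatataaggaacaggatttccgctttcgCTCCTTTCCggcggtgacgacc
Rpl27a, chr7:109519105-109519214, plus strand: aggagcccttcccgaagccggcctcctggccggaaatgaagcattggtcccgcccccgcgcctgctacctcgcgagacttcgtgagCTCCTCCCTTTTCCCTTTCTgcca
Rps10, chr17:27635225-27635334, minus strand: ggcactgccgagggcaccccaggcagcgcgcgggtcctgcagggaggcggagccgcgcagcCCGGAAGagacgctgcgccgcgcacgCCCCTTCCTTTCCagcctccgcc
Rpl4, chr9:64173297-64173406, plus strand: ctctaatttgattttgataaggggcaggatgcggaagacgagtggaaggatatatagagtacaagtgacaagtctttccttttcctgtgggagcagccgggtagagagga
Rps4x, chrX:102189372-102189481, minus strand: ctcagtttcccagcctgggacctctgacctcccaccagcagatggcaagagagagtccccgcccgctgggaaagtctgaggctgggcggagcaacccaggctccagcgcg

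Such windows, from 250 bases before to 50 bases after the start, were at hand for 63 of the 84 members. The pyrimidine run at the start was found in 44.4% of them and in 18.5% of the windows of all 27025 genes. Only runs opening within 5 bases of the first listed start were counted, so a member without the run here may still carry one nearby. The printed *Rpl4* stretch holds a run of C and T that ends shortly before its listed start. The split into members with and without the run thus depends on the listed starts. CCGGAAG was found in 39.7% against 9.12%, AANATGGC in 19.0% against 6.23% and GGGCGG (SP1) in 60.3% against 35.9%. GGG and CC with 5 bases between them (a loose NF-κB form) was found in 60.3% against 50.4%, CACGTG (the E-box) in 7.94% against 7.24% and TATAAA in 9.52% against 14.2%. These motifs were searched on both strands, and a match is a string of letters, not a binding site. Of the 60 tested members with a window, 9 of the 28 with the run at the start rose after LPS, with a median log2 fold change of 0.33, and 3 of the 32 without it rose, with a median of 0.29 (20.4% of all genes tested rose). In the LGK974 group against control, 23 of the 28 (median 0.81) and 19 of the 32 (median 0.65) rose, where 16.4% of all genes tested did. The difference between the 28 and the 32 was not tested.

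The second comparison addresses the addition of LGK974 to LPS. In the LGK974 group against the endotoxemic group, 1 of the 81 members rose and 0 fell, where 2.80% of all genes tested rose and 2.82% fell (5.62% in all). The fold changes nevertheless lay almost all on one side. The log2 fold change was above 0 in 79 members, with a median of 0.38 against 0.03 in all genes tested. Both LGK974 libraries were above both endotoxemic libraries in 67 members, against 26.5% of all genes tested, and below in 1 (*Rpl7*), against 26.0%. At an unadjusted p below 0.05, 36 members were higher and 0 lower, where 11.9% of all genes tested were higher and 11.0% lower. DESeq2 called 6 members higher, where it called 4.96% of all genes higher. The count of 1 became 34 without LGK974 library 1, where 8.98% of all genes tested rose, 3 without library 2, where 4.76% did, and 0 without any 1 of the other 4 libraries, where 0.172 to 0.953% did.

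The member that passed the test was *Rpl3*, which lies near the peptidyl transferase centre of the 60S subunit. It stood at 57.4 and 71.3 CPM in the control, 85.5 and 99.3 in the endotoxemic and 161 and 166 in the LGK974 libraries. The 3 groups did not overlap, and the rise over the endotoxemic group was 1.77-fold (log2 0.82 ± 0.20, edgeR adjusted p = 0.0458, with 0.00269 to 0.322 over the alternatives). *Rps10*, a 40S protein that is marked with ubiquitin on collided ribosomes, stood at 65.9 and 54.3, 82.3 and 60.5, and 117 and 157 CPM. Its LGK974 libraries were above all others, but the difference of 0.94 ± 0.24 from the endotoxemic group did not pass the test (edgeR adjusted p = 0.0545). *Rps27* (0.77), *Rpl9* (0.69), *Rpl24* (0.68) and *Rps12* (0.67) followed, with adjusted p of 0.0569 to 0.091 by edgeR. The lowest values were −0.21 for *Rpl7* (82.8 and 105 CPM in the LGK974 libraries) and −0.05 for *Rps2*, followed by *Rpl21* at 0.03 and *Rpl30* at 0.07.

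The third comparison sets the LGK974 group against control, and it shares its libraries with the first and the second. In it 50 of the 81 members rose and 0 fell, where 16.4% of all genes tested rose and 17.7% fell (34.1% in all). The log2 fold change was above 0 in 80 members and its median was 0.69, against 0.02 in all genes tested. Both LGK974 libraries were above both control libraries in 77 members, against 33.8% of all genes tested. The count was 15 or 16 without 1 of the control libraries, where 8.87 and 7.83% of all genes tested rose, and 38 to 63 without 1 of the other libraries, where 12.5 to 20.0% did. In 45 members every LGK974 library was above every endotoxemic library and every endotoxemic library above every control library. The share of all genes tested with this order was not computed, so the 45 cannot be read against a background.

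*Rpl22l1* had the largest fold change (3.23-fold, log2 1.69 ± 0.32, edgeR adjusted p = 0.00335). *Rps27* stood at 72.0 and 86.1 CPM in the LGK974 libraries, 2.73-fold above control (1.45 ± 0.20, edgeR adjusted p = 0.000631). *Rps12*, a protein of the 40S beak, stood at 37.7 and 43.5 CPM in the control, 69.5 and 60.2 in the endotoxemic and 91.8 and 115 in the LGK974 libraries. Its 3 groups did not overlap, and the LGK974 group was 2.55-fold above control (edgeR adjusted p = 0.00119). *Rpl3* (1.35), *Rps13* (1.24) and *Rps20* (1.23) came next, and these 6 members passed the test in each of the 17 alternatives. *Rpl21* was the one member below 0 (−0.02 ± 0.20), with 72.6 and 83.4, 67.8 and 83.1, and 76.5 and 77.6 CPM. *Rps2*, near the mRNA entry of the 40S subunit, stood at 181 and 210, 171 and 243, and 190 and 211 CPM (0.03 ± 0.22). Low values were also found for *Rpl7* (0.19), *Rps4x* (0.29) and *Rpl4* (0.31), none of which passed the test.

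**Figure D4:**
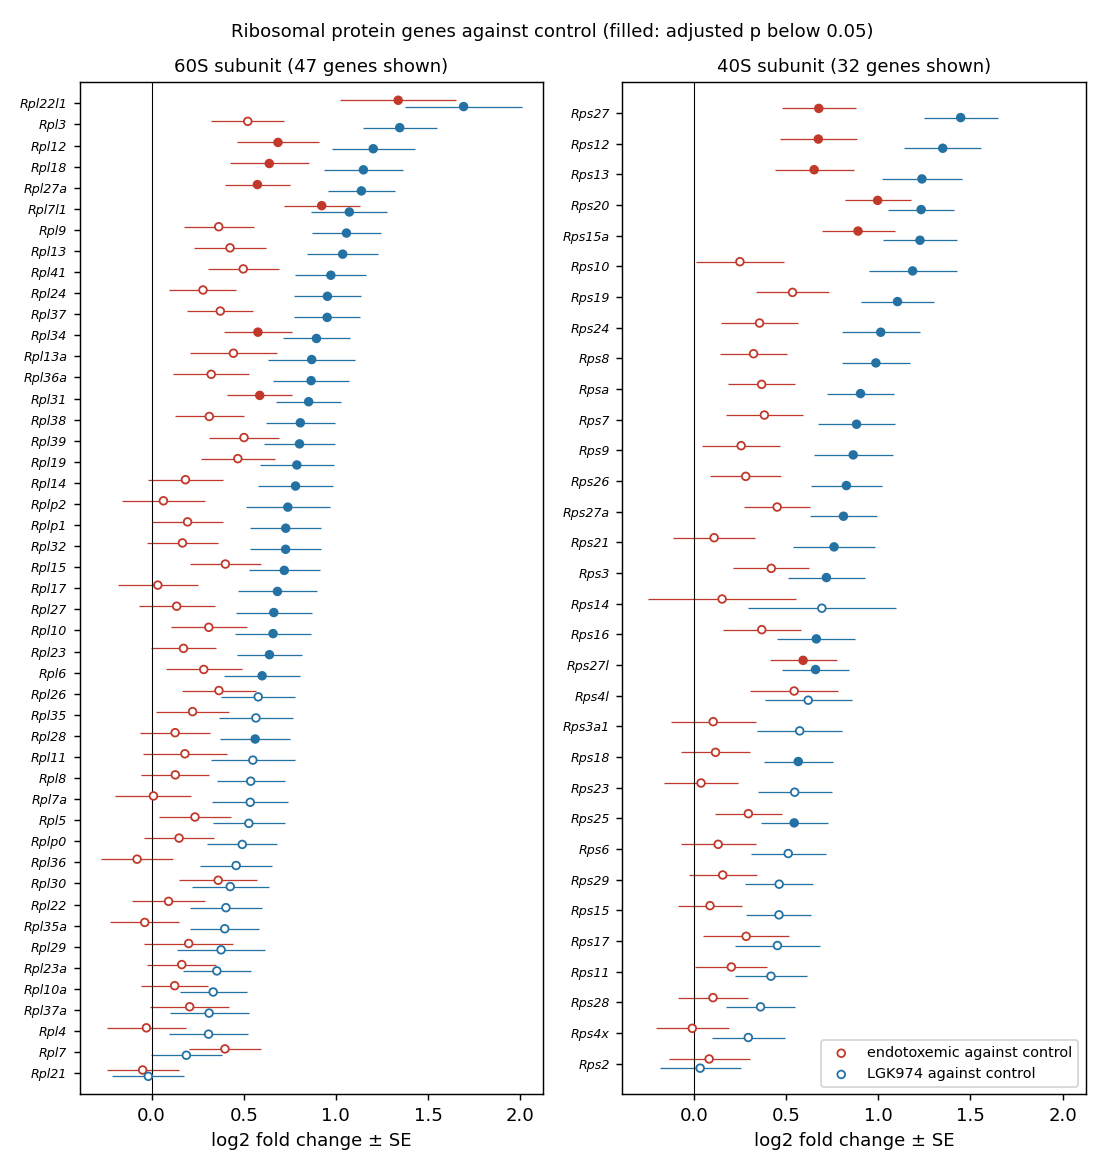
Log2 fold change ± SE against control of 79 of the 81 tested members, in the endotoxemic group (red) and the LGK974 group (blue), for 47 60S and 32 40S genes ordered by the LGK974 value (filled points have an edgeR adjusted p below 0.05). Both comparisons use the same 2 control libraries, and 13 red and 49 blue points are filled.

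Members of both subunits rose. Of the 48 tested 60S members, 7 rose after LPS and 29 in the LGK974 group against control, with medians of 0.26 and 0.67. Of the 33 tested 40S members, 7 and 21 rose, with medians of 0.30 and 0.72. Of all genes tested, 20.4% rose after LPS and 16.4% in the LGK974 group against control. The difference between the subunits was not tested. *Rplp0*, *Rplp1* and *Rplp2*, which form the stalk that recruits elongation factors, did not pass the edgeR test after LPS (log2 0.06 to 0.20, 0 of 3 at an unadjusted p below 0.05). *Rplp1* (0.73, edgeR adjusted p = 0.0176) and *Rplp2* (0.74, edgeR adjusted p = 0.0331) rose in the LGK974 group against control, while *Rplp0* did not pass the test (0.49, edgeR adjusted p = 0.0739). *Rplp2* stood at 251 and 198, 267 and 203, and 334 and 417 CPM, so its control and endotoxemic libraries overlapped. *Rpl5* (289 and 275, 318 and 346, and 357 and 456 CPM) and *Rpl11* (51.9 and 48.8, 56.3 and 57.8, and 58.7 and 88.6 CPM), which travel with 5S ribosomal RNA and bind Mdm2, passed the edgeR test in none of the 3 comparisons, and at an unadjusted p below 0.05 both were higher in the LGK974 group than in control, as were 22.1% of all genes tested. Their log2 fold changes in the LGK974 group against control were 0.53 and 0.55.

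Ribosomal proteins with a known role in inflammation outside the ribosome were *Rps3*, a cofactor of the NF-κB subunit p65, *Rpl13a*, which silences inflammatory mRNAs as part of the GAIT complex, *Rps19*, which can bind the cytokine MIF, and *Rpsa*, the laminin receptor precursor. None of the 4 passed the edgeR test after LPS, where 20.4% of all genes tested rose. At an unadjusted p below 0.05, 1 was higher, as were 24.5% of all genes tested. The nearest to the threshold was *Rps19* (0.53, edgeR adjusted p = 0.0544), at 47.1 and 38.4 CPM in the control and 65.8 and 58.0 in the endotoxemic libraries. All 4 rose in the LGK974 group against control, by log2 values of 0.72 for *Rps3*, 0.87 for *Rpl13a*, 0.90 for *Rpsa* and 1.10 for *Rps19*. In that comparison 50 of the 81 tested members and 16.4% of all genes tested rose. *Rpl13a* stood at 347 and 294, 434 and 439, and 460 and 711 CPM, so that its LGK974 libraries differed widely from each other. Against the endotoxemic group 0 of the 4 passed the edgeR test, where 2.80% of all genes tested rose. At an unadjusted p below 0.05, 2 were higher, where 11.9% of all genes tested were. A list of 15 genes mutated in Diamond-Blackfan anemia, an inherited failure of red cell production, was also followed. It may not hold every member reported in the disease, so its counts depend on the choice of list. Of the 15, 1 rose after LPS (*Rpl31*), against 14 of all 81 members and 20.4% of all genes tested. In the LGK974 group against control 8 of the 15 rose, against 50 of the 81 and 16.4%.

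Some members have retrocopies or pseudogenes with rows of their own, and the counting method is not given in the sources used here, so reads may have been split between near-identical copies. *Rpl34-ps1* held 0.923 to 0.953 times the counts of *Rpl34* in every library and stood next to it in the table, out of genomic order. *Rps27rt*, which also stood out of genomic order next to its parent, held 1.81 to 2.81 times the counts of *Rps27*. *Rpl37rt* held 2.10 to 2.75 times those of *Rpl37*, and *Rplp2-ps1* held 1.97 to 2.48 times those of *Rplp2*. The values of these members are uncertain to that extent. When the counts of all such copies were added to their members, a choice made after the data were seen, 14, 1 and 49 members were called higher in the 3 comparisons, where 20.4, 2.84 and 16.4% of all genes tested were, and *Rplp2* no longer passed the test against control (edgeR adjusted p = 0.0535). Ribosome proteins whose symbols lie outside the naming rule were followed separately. *Fau*, the precursor of Rps30, stood at 152 and 172, 119 and 146, and 164 and 204 CPM. It did not pass the test in any comparison (log2 −0.29 after LPS). *Gnb2l1*, the scaffold protein Rack1 of the 40S subunit, rose in the LGK974 group against control (0.78, edgeR adjusted p = 0.0192).

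The other mRNAs of the TOP class, which encode translation factors and RNA-binding proteins, did not move in one direction. Of 22 tested, 2 rose after LPS, *Nap1l1* (1.24, edgeR adjusted p = 0.00673) and *Npm1* (0.68, edgeR adjusted p = 0.0147), where 20.4% of all genes tested rose and 23.0% fell. The initiation factors *Eif4a2* (−0.96) and *Eif4b* (−0.67) and the RNA-binding protein *Cnbp* (−0.88) fell, with edgeR adjusted p of 0.00297 to 0.0227. Their median was 0.03 after LPS and 0.11 in the LGK974 group against control, where 4 rose and 3 fell (16.4 and 17.7% of all genes tested). Against the endotoxemic group 1 fell (2.82% of all genes tested did), the X-linked *Eif2s3x* (−1.14), whose Y-linked copy *Eif2s3y* had 0 counts in the control and endotoxemic libraries and 24.4 and 12.9 CPM in the LGK974 libraries. Of the 4 X-linked ribosomal protein genes, *Rpl10*, *Rpl36a* and *Rpl39* rose against control in the LGK974 group and *Rps4x* did not pass the test.

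Among 19 tested genes of mTORC1 and TOP mRNA control, 3 rose and 8 fell after LPS, where 20.4% of all genes tested rose and 23.0% fell. *Deptor*, an inhibitor of mTOR, went from 408 and 338 CPM in the control to 46.9 and 39.3 in the endotoxemic libraries. The groups were far apart, and the fall was −3.11 ± 0.28 on the log2 scale (edgeR adjusted p = 3.65e-05). *Larp1*, the repressor and stabilizer of TOP mRNAs, stood at 305 and 215, 159 and 112, and 104 and 103 CPM (−0.94 after LPS, edgeR adjusted p = 0.0124). *Sesn1* (−1.91) and *Eif4ebp2* (−1.86) also fell, and *Eif4ebp3* (1.12), *Eif4e* (0.69) and *Eif4ebp1* (0.66) rose. Against the endotoxemic group, 0 of the 19 passed the edgeR test in the LGK974 group, where 2.80% of all genes tested rose and 2.82% fell. At an unadjusted p below 0.05, 3 were higher and 0 lower, where 11.9% of all genes tested were higher and 11.0% lower. Against control, 4 rose and 6 fell, where 16.4% of all genes tested rose and 17.7% fell.

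Of 14 genes that rescue stalled or collided ribosomes, 5 rose after LPS and 0 fell (20.4 and 23.0% of all genes tested), led by *Pelo* (1.18, edgeR adjusted p = 0.00243), *Nemf* (0.98) and *Ascc3* (0.92). In the LGK974 group against the endotoxemic group 0 passed the edgeR test, with 4 lower at an unadjusted p below 0.05 (11.0% of all genes tested), and against control 3 rose (16.4% of all genes tested). Of 14 chaperones and importins that carry ribosomal proteins to the nucleolus, *Ltv1* rose (1.27) and *Aamp* fell (−0.91) after LPS, and 2 rose in the LGK974 group against control. Among all genes tested 20.4% rose and 23.0% fell after LPS, and 16.4% rose in the LGK974 group. Of 9 genes of the p53 axis, 6 rose and 1 fell after LPS, to be read against the same shares. *Cdkn1a*, the cell cycle inhibitor p21, stood at 9.28 and 9.35 CPM in the control, 460 and 408 in the endotoxemic and 262 and 189 in the LGK974 libraries. Its groups did not overlap, it rose after LPS (log2 5.54 ± 0.26, edgeR adjusted p = 1.16e-06), and it was lower in the LGK974 than in the endotoxemic group (−0.94 ± 0.21, edgeR adjusted p = 0.0366). *Phlda3* (4.94) and *Bax* (2.56) rose with it after LPS.

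Markers of other cells moved with the groups, and their counts of calls after LPS stand against 20.4% of all genes tested that rose and 23.0% that fell. The 8 neutrophil markers counted summed to 9.28 and 6.93 CPM in the control, 107 and 117 in the endotoxemic and 80.5 and 70.9 in the LGK974 libraries. In the endotoxemic and LGK974 libraries most of this was *S100a9*. The symbols *S100a8*, *S100a9* and *Elane* were out of genomic order, and the other 5 summed to 1.76 and 1.90, 29.0 and 28.8, and 23.9 and 19.3 CPM. Of the 6 neutrophil markers tested, 5 rose after LPS, and *Camp* and *Ltf* had 0 counts in the control libraries. The 7 erythroid markers summed to 2743 and 2965, 6570 and 7707, and 4173 and 2714 CPM, and 5 of the 6 tested rose after LPS. The 9 Kupffer cell and macrophage markers summed to 363 and 359 CPM in the control, 236 and 241 in the endotoxemic and 147 and 190 in the LGK974 libraries. Without *Cd5l* and *Csf1r*, which fell and had symbols out of order, the other 7 summed to 188 and 204, 202 and 207, and 127 and 164 CPM. Among these 7, *Marco* rose from 6.87 and 6.27 to 96.6 and 74.5 CPM after LPS, while *Clec4f*, *Vsig4* and *C1qa* fell. Of the 9, 5 fell after LPS and 1 rose, with a median of −0.84. The 8 sinusoidal endothelial markers summed to 278 and 287, 455 and 454, and 489 and 625 CPM. Their summed rise lay mainly in *Lyve1* (3.03), while 4 of the 8 fell after LPS, 2 rose and the median was −1.18, with *Stab1* out of order. The 10 lymphocyte markers counted summed to 2.37 to 11.1 CPM, with *Ncr1* at 0, and 1 of the 3 tested rose after LPS. The 6 cholangiocyte markers summed to 29.1 to 92.3 CPM, and 1 of the 5 tested rose and 1 fell. The 8 stellate cell markers summed to 459 to 622 CPM, and 1 rose and 3 fell. The ribosomal RNA precursor *Rn45s* took 4.80 to 9.38% of the counts, with both ends of that range in the LGK974 group. The part of these differences in the ribosomal protein values was not tested. Without *Rn45s* in the library totals the share of ribosomal protein counts was 1.55% in the control, 1.98% in the endotoxemic and 2.57% in the LGK974 group.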

How the data were processed

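The libraries were made with the Lexogen QuantSeq kit, which reads transcript ends. The authors deposited unnormalized read counts for 23282 gene symbols in 8 libraries, and the submitters' processing notes name Bowtie2, edgeR and mm10. The counting program and annotation are not given in the sources used here. Endotoxemic libraries with identical counts were joined, which left 6 libraries. The counts were fitted with edgeR 4.0.16 (R 4.3.3) after its filterByExpr filter by group, which kept 12701 genes, and TMM scaling, with 1 quasi-likelihood model on group. P-values were adjusted by Benjamini-Hochberg over these genes at a threshold of 0.05, and CPM are TMM-normalized. The SE was derived from the test. The fit was tested on simulated data. Symbols were compared with RefSeq positions on GRCm38, and a symbol was out of order when more than 2 Mb from its ordered neighbours. Start-site sequences are RefSeq's (GRCm38.p6).

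The members and gene lists were chosen with earlier results of these data known. Named members are those of the paralog, stalk, 5S and inflammation lists, the 6 highest and 6 lowest fold changes in each comparison and the 5 most abundant. Of the other lists, up to 3 changes in each direction past the threshold are named. *Rpl18*, *Rpl27a*, *Rpl31* and *Rpl34*, the X-linked members, *Fau*, *Larp1*, *Eif2s3y*, the markers of cell types and members with copies were named after their values were seen. A few genes that enter the counts are not reported here by name. Alternatives were DESeq2 1.42.0, 2 other filters, 3 other scalings, the 4 endotoxemic libraries kept apart, a replicate block, out-of-order symbols left out or reassigned, each library left out, and copies added to their members. A gene set test was not run. The LGK974 dose and the times come from the study's methods, which place LGK974 2 h before LPS in most experiments.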

Additional observations from a re-analysis of the deposited data

How the results depend on the processing

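The share of all genes tested that was called higher is given in parentheses beside each count of members. No member was called lower in any of the 17 alternatives in any comparison. Endotoxemic against control, 14 members were called in the reported analysis (20.4%), 33 with the 4 endotoxemic libraries kept separate, so that identical copies counted as replicates (29.5%), and 2 to 27 with 1 library left out (11.4 to 24.4%). LGK974 against endotoxemic, the count of 1 (2.80%) became 6 with DESeq2 (4.96%), 4 with no filter (5.10%), 2 with at least 10 counts in every library (3.25%), 0 with library totals (2.70%), 3 with upper quartile scaling (3.28%), 42 with the endotoxemic libraries kept separate (13.6%) and 0 to 34 with 1 library left out (0.172 to 8.98%). LGK974 against control, the count of 50 (16.4%) was 15 to 63 with 1 library left out (7.83 to 20.0%), the lowest being 15 and 16 without a control library. The members' median log2 fold change was 0.28 in endotoxemic against control, and 0.32 with no filter, 0.32 with TMM factors made without ribosomal protein genes and *Rn45s*, 0.33 with upper quartile scaling and 0.33 to 0.35 without control library 1 or endotoxemic library 1. A library left alone in its group was assumed to vary like those of the other groups. In LGK974 against control the median was 0.55 to 0.82 with 1 library left out, the ends being LGK974 library 2 and library 1. Upper quartile scaling moved the median of all genes to 0.11 in LGK974 against control. The shares of counts became 1.55 and 1.98% without *Rn45s* in the control and endotoxemic groups, and 1.10, 1.44 and 1.86% without the 5 most abundant members. Apart from the counts with copies used as replicates, which add no independent sample, the cause of these shifts was not tested.

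With the replicate number as a block, 15, 1 and 54 members were called (20.3, 2.60 and 16.1%), with medians of 0.29, 0.39 and 0.71, and no count moved by over 1.5 times. The labels do not say that a number pairs libraries, and the correlation of same-numbered deviations was 0.18, 0.063 and −0.013.

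Of 1836 values of the 36 named members under alternatives, 1650 kept direction and side of the threshold, 90 passed it newly, 51 no longer passed and 45 turned direction, each of the latter with an adjusted p of at least 0.435 by edgeR or DESeq2. After LPS, *Rpl35a* turned to 0.0048 with no filter, 0.0012 with TMM factors made without ribosomal protein genes and *Rn45s*, and 0.011 with upper quartile scaling. *Rpl4* turned to 0.018, 0.014 and 0.020 under these, 0.0054 with library totals and 0.00012 without out-of-order symbols, and *Rps4x* to 0.031, 0.028, 0.039, 0.026 and 0.017, and to 0.0082 with DESeq2. *Rpl21* turned to 0.019, 0.022 and 0.075 under the first 3 in LGK974 against control. With 1 library left out, the log2 fold change after LPS ran from −0.18 to 0.069 for *Rpl36*, −0.20 to 0.15 for *Rpl21*, −0.12 to 0.046 for *Rpl35a*, −0.19 to 0.18 for *Rpl4*, −0.17 to 0.17 for *Rps4x*, −0.092 to 0.12 for *Rpl7a*, −0.19 to 0.38 for *Rps2*, −0.095 to 0.25 for *Rplp2* and −0.47 to 0.74 for *Rps14*. In LGK974 against endotoxemic it ran from −0.14 to 0.19 for *Rpl21*, −0.10 to 0.70 for *Rpl22l1*, −0.31 to 0.23 for *Rps2*, −0.074 to 0.19 for *Rpl30*, −0.047 to 0.16 for *Rps27l* and −0.20 to 0.31 for *Rps4l*, and in LGK974 against control from −0.12 to 0.090 for *Rpl21* and −0.074 to 0.15 for *Rps2*. The cause was not tested.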
